A study of Homo sapiens with 12 samples.

Results

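The MYC network described here is a set of 10 genes, namely MYC, MYCN and MYCL, their dimer partner MAX, and the MAX-binding repressors MNT, MGA, MXI1, MXD1, MXD3 and MXD4. They were taken by exact gene name from the gene expression tables of KURAMOCHI (Ku) and COV362 (Cov), which are 2 human ovarian cancer cell lines. The exact names gave 9 of the 23621 gene rows. MYCL has no row of that name, and its older symbol MYCL1 is given beside the others as a level only. All libraries came from untransduced control cells treated for 6 hr with DMSO, the vehicle, or with THZ1, a covalent inhibitor of CDK7 and CDK12/13, at a dose of 50 nM or 250 nM. Ku cells grew in RPMI and Cov cells in DMEM, both with fetal bovine serum. Each line contributed 6 libraries, 2 for each treatment, which the design calls biological duplicates. Each line is a single cell line, so a difference between Ku and Cov is a difference between these lines only.

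MYC proteins bind DNA as dimers with MAX, chiefly at the E-box CACGTG, and activate transcription there. MNT, MGA and the MXD proteins, to which MXI1 belongs, also need MAX to bind the same sites, and they recruit repressor complexes instead. MYC mRNA and protein both turn over quickly, and amplification or high expression of MYC is common in high-grade serous ovarian cancer.

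Values are FPKM, a level per transcript length, which the authors normalized to ERCC spike-in RNAs added to RNA from counted cells. A change was tested with limma on log2(FPKM + 1) and was called when the adjusted p was below 0.001 and the log2 fold change was beyond 0.5. Every rise or fall given here is one on this spike-in scale. Adjustment by the Benjamini-Hochberg method ran over 14251 active genes, those above 1 FPKM in at least 1 of the 12 libraries. All 9 members with a row were active, although MYCN was active only through Ku DMSO and 50 nM libraries, with a highest value of 2.06 FPKM. A comparison of MYCN with those libraries draws on the values that made it active, so its values are given with no test. Main counts of called members that include it are also given without it. Counts under alternative settings, or with a library left out, include it where it passed. Because the RNA came from bulk cultures, fewer cells that express a gene and less of its RNA per cell cannot be told apart. The serous and epithelial markers PAX8, KRT8 and KRT18 were high in DMSO libraries of both lines, with PAX8 at 136 FPKM in Ku and 124 FPKM in Cov. WT1, another serous marker, was at 56.8 FPKM in Ku and at 0.653 FPKM in Cov, below the active limit. EPCAM was at 4.13 FPKM in Ku and 162 FPKM in Cov, KRT7 at 4.61 and 1355 FPKM, and MUC16 and CDH1 were below 1 FPKM in Ku but not in Cov. COL1A1, a fibroblast gene, was at 2.53 and 3.17 FPKM. PTPRC, CD3E and PECAM1, which mark blood and endothelial cells, were below 1 FPKM in the DMSO libraries of both lines.

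The lines were quantified in separate tables, so levels are set side by side between lines but not tested. In DMSO, MYC was the highest member in both lines. It stood at 82.5 and 73.9 FPKM in the Ku libraries and at 165.4 and 180.3 FPKM in the Cov libraries. MAX was second in Ku, at 24.8 and 22.7 FPKM. MXD3 and MXD4 followed in Ku with overlapping ranges, and MGA, MXI1, MNT, MXD1, MYCN and MYCL1 came after them in that order without overlap between neighbours. In Cov, MXD4 was second at 40.3 and 42.3 FPKM, and MXD3 and MAX overlapped behind it. MXI1, MGA, MNT, MXD1, MYCL1 and MYCN came next, again without overlap between neighbours. MYC made up 96.1% and 96.6% of the summed FPKM of MYC, MYCN and MYCL1 in Ku DMSO libraries, and 99.3% and 99.4% in Cov. The MYC family mRNA of both lines was thus nearly all MYC.

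**Figure D1:**
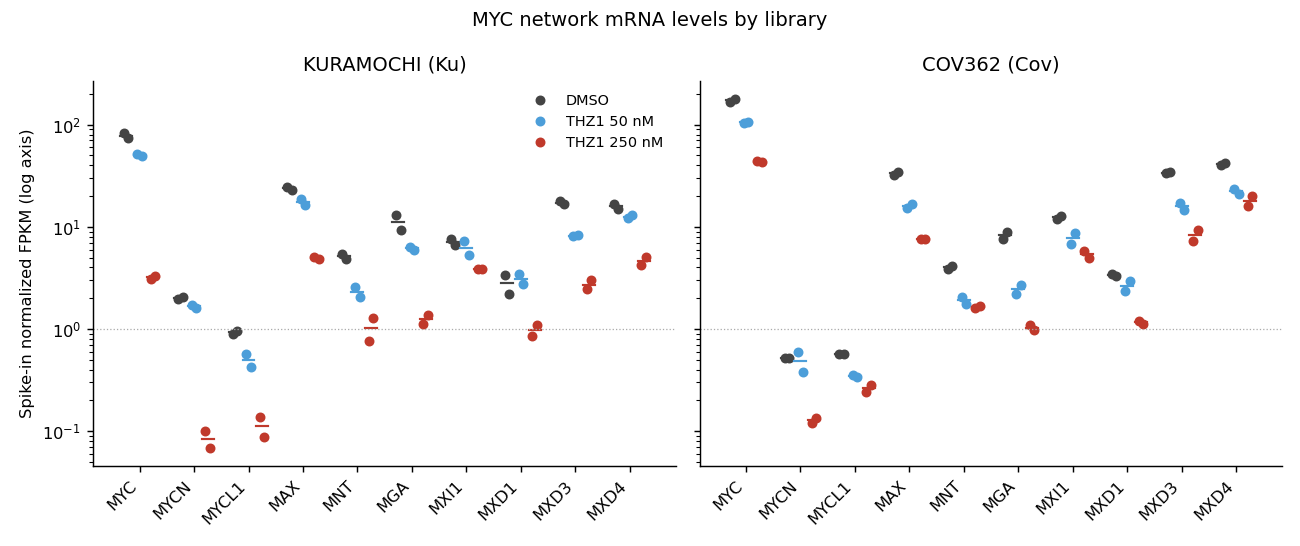
Level of each member in every library (points, spike-in normalized FPKM, log axis) with the mean of each pair (bars), for Ku and Cov in DMSO and after 50 nM and 250 nM THZ1; the dotted line is 1 FPKM. In Ku, MYC falls from above all other members to 3.11 and 3.30 FPKM, below MAX, MXD4 and MXI1, whereas in Cov it stays the highest member at 43.6 and 43.5 FPKM.

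At 250 nM THZ1 the order changed in Ku. MAX and MXD4 were then the highest members with overlapping ranges, MXI1 followed, and MYC was in place 4 of 10. In Cov at 250 nM the first members in order were still MYC, MXD4, and MXD3 with MAX.

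The next comparison asks how MYC itself responded to each dose. After 50 nM THZ1, the Ku libraries held 51.2 and 49.2 FPKM of MYC and the Cov libraries 104.9 and 107.1 FPKM. Both lines thus kept similar shares of the DMSO mean, 64.3% in Ku and 61.3% in Cov. After 250 nM, Ku held 3.11 and 3.30 FPKM, or 4.10% of the DMSO mean, and Cov held 43.6 and 43.5 FPKM, or 25.2%. In both lines all DMSO libraries lay above all 50 nM libraries, and those above all 250 nM libraries.

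In limma, MYC fell at 50 nM in Cov, with a log2 fold change of -0.70 (SE 0.0796, n = 2 against 2, adjusted p = 0.00014). The Ku value at 50 nM was -0.63 (SE 0.0845, limma adjusted p = 0.00192) and did not pass the threshold. At 250 nM, MYC fell in both lines, with log2 fold changes of -4.23 in Ku (SE 0.0845, limma adjusted p = 4.94e-06) and -1.96 in Cov (SE 0.0796, limma adjusted p = 9.76e-07). In Ku, 0.54% of active genes had a lower log2 fold change than MYC at 250 nM, against 21.5% in Cov. On log2(FPKM + 1) the DMSO level of a gene bounds its largest possible fall, so such shares also depend on level. At 50 nM those shares were 32% and 64.9%. MYC thus stood near the far end of the Ku response at 250 nM only, and the step from 50 to 250 nM was also called in both lines, at -3.61 in Ku and -1.26 in Cov.

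The difference between the lines in the response to 250 nM was tested by limma as the Ku fold change minus the Cov fold change. For MYC it was -2.27 (SE 0.108, 95% interval -2.51 to -2.03, adjusted p = 1.41e-06), and 0.695% of active genes had a lower value. It was called in 22 of 22 alternative settings, other scalings and each library left out included, with values from -2.58 to -2.19. At 50 nM the difference for MYC was 0.07 (95% interval -0.17 to 0.31), which was not called. It turned to -0.45 under equal-median scaling and -0.40 under median-of-ratios scaling, not called in either. No member was called in the line difference at 50 nM, where 0.351% of active genes were called lower and 2.03% higher, and 3 members (MAX, MGA and MXD4) had an unadjusted p under 0.05 in limma, all with a value above 0, as had 57% of active genes. At 250 nM, 2.52% of active genes were called lower in Ku than in Cov in this sense and 3.85% higher. MYCN is given further on as values only. Beside the members described further on, the difference at 250 nM was 0.33 for MXI1 (95% interval -0.13 to 0.80), 0.09 for MXD1 (-0.41 to 0.59), -0.38 for MXD3 (-0.77 to 0.01) and -0.42 for MXD4 (-0.81 to -0.03), none of them called.

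MAX, the dimer partner shared by the network, fell in both lines, and the difference between the lines at 250 nM was not called. In Ku it was at 24.8 and 22.7 FPKM in DMSO, 18.7 and 16.3 at 50 nM, and 5.11 and 4.84 at 250 nM. In Cov it was at 32.3 and 34.7 FPKM in DMSO, 15.3 and 16.8 at 50 nM, and 7.63 and 7.55 at 250 nM. The groups did not overlap in either line.

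The log2 fold change of MAX at 250 nM was -2.05 in Ku (SE 0.108, limma adjusted p = 1.52e-05) and -2.01 in Cov (SE 0.0912, limma adjusted p = 1.22e-06). The line difference was -0.04 with a 95% interval of -0.33 to 0.25. At 50 nM, MAX fell in Cov, with a log2 fold change of -1.02 (limma adjusted p = 5.41e-05), and the Ku value was -0.42 (limma adjusted p = 0.0186), which was not called. The line difference at 50 nM was 0.60 (95% interval 0.31 to 0.89, limma adjusted p = 0.00578), also not called.

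**Figure D2:**
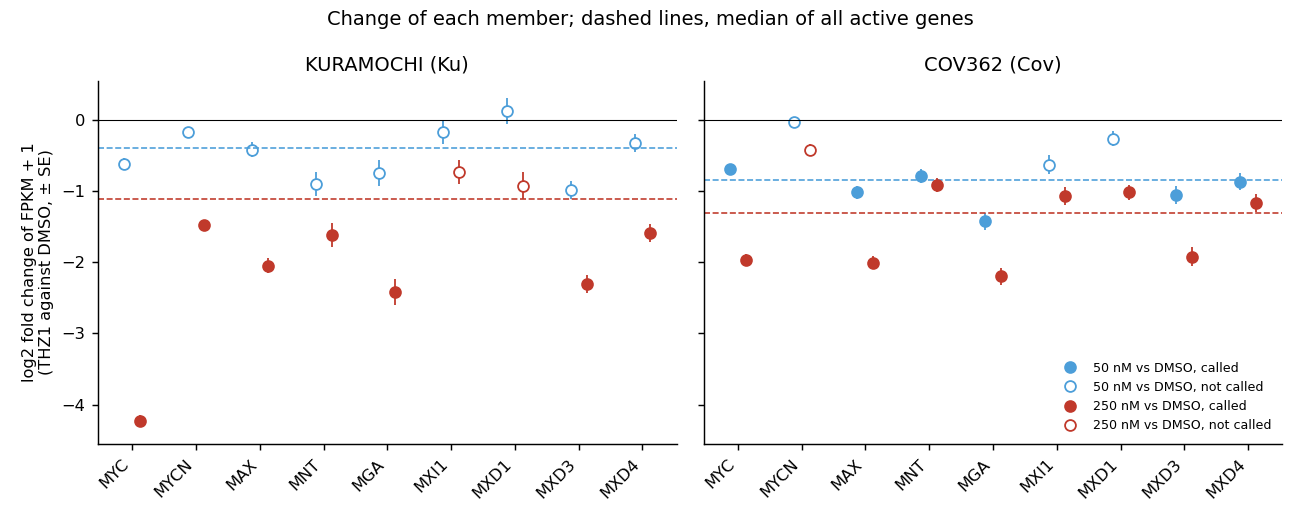
log2 fold change of FPKM + 1 against DMSO (points, ± SE) for each member at 50 nM and 250 nM THZ1 in Ku and Cov; filled points were called and dashed lines are the medians of all active genes. On this scale, MYC at 250 nM in Ku, at -4.23, lies apart from every other member. In Cov, 8 of the 9 members were called lower at 250 nM, where 84% of active genes were. MYCN is filled at 250 nM in Ku, but its call is not read as a test.

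Among the repressors, MGA and MXD3 had the lowest log2 fold changes at 250 nM in both lines. MGA encodes a very large scaffold protein that also belongs to the polycomb complex PRC1.6, and MXD3 is an MXD repressor linked to proliferating cells. MGA was at 13.0 and 9.26 FPKM in Ku DMSO libraries, 6.39 and 5.91 at 50 nM, and 1.13 and 1.36 at 250 nM. In Cov it went from 7.69 and 8.97 FPKM to 2.22 and 2.70 at 50 nM and 1.09 and 0.971 at 250 nM. No group of MGA libraries overlapped another within a line.

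At 250 nM, MGA fell in both lines, with log2 fold changes of -2.42 in Ku (SE 0.181, limma adjusted p = 4.42e-05) and -2.20 in Cov (SE 0.119, limma adjusted p = 2.15e-06), leaving 11.1% and 12.4% of the DMSO mean. The line difference was -0.22 with a 95% interval of -0.70 to 0.25.

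MXD3 was at 17.8 and 16.8 FPKM in Ku DMSO libraries, 8.05 and 8.36 at 50 nM, and 2.44 and 2.99 at 250 nM. The Cov libraries were at 33.3 and 34.5 FPKM in DMSO, 17.1 and 14.6 at 50 nM, and 7.24 and 9.27 at 250 nM. The dose groups were again separate in both lines. The log2 fold changes at 250 nM were -2.30 in Ku (SE 0.124, limma adjusted p = 1.6e-05) and -1.92 in Cov (SE 0.131, limma adjusted p = 5.77e-06), both called. MXD3 overlaps RAB24 on its own strand and PRELID1 on the other. Their highest values were 27.2 and 385 FPKM, and how reads in the overlaps were assigned was not tested.

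MXD4 and MNT are repressors found in many cell types, MNT being a broadly expressed antagonist of MYC. MXD4 was at 16.9 and 15.0 FPKM in Ku DMSO libraries, 12.1 and 13.0 at 50 nM, and 4.23 and 5.07 at 250 nM. Values in Cov were 40.3 and 42.3 FPKM in DMSO, 23.4 and 20.9 at 50 nM, and 15.8 and 20.05 at 250 nM. In Cov the highest 250 nM library thus came close to the lowest 50 nM library. MXD4 fell at 250 nM in both lines, with log2 fold changes of -1.59 in Ku (limma adjusted p = 5.28e-05) and -1.17 in Cov (limma adjusted p = 5.81e-05). The microRNA gene MIR4800 lies within MXD4 on the same strand and has a row of its own that reached 3302 FPKM, and whether the rows share reads was not tested.

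MNT was at 5.45 and 4.87 FPKM in Ku DMSO libraries, 2.57 and 2.04 at 50 nM, and 0.767 and 1.29 at 250 nM. In Cov it was at 3.88 and 4.16 FPKM in DMSO, 2.06 and 1.77 at 50 nM, and 1.62 and 1.69 at 250 nM. Cov cells thus kept 47.6% of the DMSO mean after 50 nM THZ1 and 41.1% after 250 nM, and the step from 50 to 250 nM was -0.13 on the log2 scale (95% interval -0.36 to 0.09). Against DMSO, MNT fell at 250 nM, with log2 fold changes of -1.61 in Ku (SE 0.169, limma adjusted p = 0.000171) and -0.92 in Cov (SE 0.0961, limma adjusted p = 5.01e-05). Over 16 alternative settings the Ku value ranged from -2.26 to -0.28, and its call did not hold in all of them. The line difference for MNT was -0.69 (95% interval -1.12 to -0.26, limma adjusted p = 0.0199), which was not called.

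MXI1 and MXD1, MXD repressors known to rise as cells leave the cycle and differentiate, kept more of their DMSO level at 250 nM in Ku than any other member with a row, 54.1% for MXI1 and 34.7% for MXD1. MXI1 was at 7.59 and 6.63 FPKM in Ku DMSO libraries, 7.24 and 5.29 at 50 nM, and 3.86 and 3.84 at 250 nM. The Cov libraries were at 12.02 and 12.8 FPKM, 6.80 and 8.64, and 5.79 and 5.00. The Ku libraries at 50 nM overlapped DMSO, and those at 250 nM lay below both. At 250 nM the Ku log2 fold change was -0.74 (SE 0.167, limma adjusted p = 0.00576), not called, and in Cov MXI1 was called lower at -1.07 (SE 0.132, limma adjusted p = 0.000128).

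MXD1 was at 3.41 and 2.19 FPKM in Ku DMSO libraries, 3.43 and 2.75 at 50 nM, and 0.851 and 1.09 at 250 nM. Values in Cov were 3.43 and 3.33 FPKM, 2.36 and 2.94, and 1.19 and 1.13. At 50 nM the Ku libraries overlapped DMSO, with a log2 fold change of 0.12 (95% interval -0.34 to 0.59). At 250 nM the Ku value was -0.93 (SE 0.189, limma adjusted p = 0.0036), not called, and in Cov MXD1 was called lower at -1.02 (SE 0.105, limma adjusted p = 4.72e-05). MXD1 overlaps SNRNP27 on the same strand, whose highest value was 56.2 FPKM.

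MYCN and MYCL1, the other MYC family genes, were low throughout. MYCN was at 1.98 and 2.06 FPKM in Ku DMSO libraries, 1.721 and 1.62 at 50 nM, and 0.1001 and 0.0681 at 250 nM. In Cov it was at 0.521 and 0.519 FPKM, 0.592 and 0.377, and 0.122 and 0.135. The tables hold a low value shared by 5276 rows of each Ku library and 4896 rows of each Cov library, which ranged from 0.0783 to 0.119 FPKM in Ku and from 0.0890 to 0.110 FPKM in Cov. Some rows lie below it. MYCN at 250 nM was close to this shared value in both lines, and the second Ku library, at 0.0681 FPKM, was below its own, 0.0822 FPKM.

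On the log2(FPKM + 1) scale, the value of MYCN at 250 nM against DMSO was -1.48 in Ku and -0.43 in Cov, a line difference of -1.05. With a pseudocount of 0.1 in place of 1, the values were -3.53 and -1.44, a line difference of -2.09. At 250 nM MYCN kept 4.17% of its DMSO mean in Ku and 24.7% in Cov, beside 4.10% and 25.2% for MYC. Those MYCN levels were close to the shared low value. MYCL1 was at 0.900 and 0.961 FPKM in Ku DMSO libraries and at 0.570 in both Cov DMSO libraries. It stood at 0.136 and 0.0877 FPKM in Ku and 0.244 and 0.283 FPKM in Cov at 250 nM, and it was not tested because no library exceeded 1 FPKM.

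**Figure D3:**
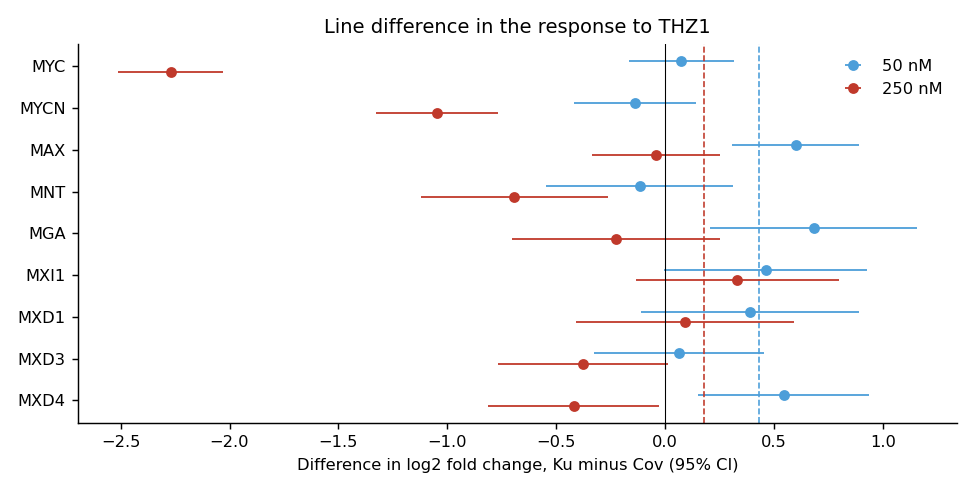
Difference between the lines in the log2 fold change against DMSO (Ku minus Cov, points, with 95% intervals) for each member at 50 nM and 250 nM THZ1; dashed lines are the medians of all active genes. MYC at 250 nM lies at -2.27, and the 250 nM interval of MAX spans 0. MYCN, at -1.05, was active only through Ku libraries, so the intervals drawn for it are not read as tests.

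Counted over the network, 7 of 9 members were called lower in Ku at 250 nM, or 6 of 8 without MYCN, and 8 of 9 in Cov, where 68.6% and 84% of all active genes were called lower. These shares are near the background and are no result about the members. No member was called higher by limma, nor was any higher at an unadjusted p under 0.05, while 0.0491% of active genes in Ku and 0.105% in Cov were called higher. The median log2 fold change of the members was -1.61 in Ku and -1.17 in Cov, beside -1.11 and -1.31 over all active genes. These medians include MYCN, at -1.48 in Ku and -0.43 in Cov. Without it the median lies midway between MAX at -2.05 and MNT at -1.61 in Ku, and between MXD3 at -1.92 and MXD4 at -1.17 in Cov. In Cov, MYCN thus decides on which side of the all-gene median the members lie. At 50 nM, 6 of 9 members were called lower in Cov, with a background of 70.5%, and 0 of 9 in Ku, with a background of 11.3%. The Ku background at 50 nM was not stable. Its 1607 genes became 9 with only the 2 groups compared, 3 with no minimum FPKM, and 6 to 131 with a library left out, whichever it was. No member was called higher at that dose, against 0.0842% of active genes in Ku and 0.0772% in Cov. By limma, 6 of the 9 had an unadjusted p under 0.05 in Ku at 50 nM, as had 61% of active genes with a value below 0, and 4 were called lower at an adjusted p under 0.05, as were 40.2%. The Cov count at 50 nM was 3 without the first DMSO library and 2 without the second, and the count over all active genes, 10042 as reported, was then 6899 and 4314.

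From 50 to 250 nM, 6 of 9 members were called lower in Ku, or 5 of 8 without MYCN, where 36% of active genes were, and 3 of 9 in Cov, where 24.4% were. None was called higher, against 0.0421% and 0.0842% of active genes. The Ku count was between 1 and 6 with a library left out, and the background between 5.55% and 32.3%. It was 1 without either 250 nM library, 2 without the first 50 nM library and 3 without the second. The Cov count was 1 without the second 250 nM library, where the background was 10.7%. All DMSO libraries above all 50 nM libraries, and those above all 250 nM libraries, held for 7 of 9 members in Ku and 8 of 9 in Cov, against 66.7% and 73.8% of active genes. Both libraries lay below both DMSO libraries for 7 of 9 members at 50 nM and 9 of 9 at 250 nM in Ku, with backgrounds of 75.8% and 95.9%, and for 8 and 9 of 9 in Cov, with backgrounds of 95.7% and 95.6%. Both 250 nM libraries lay below both 50 nM libraries for 9 of 9 members in each line, with backgrounds of 87.7% and 75.6%. The exceptions to the dose order were MXI1 and MXD1 in Ku and MYCN in Cov.

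These counts rest on the spike-in normalization, under which most genes fell. With every library instead scaled to the same median FPKM, 3 members were called lower and 1 higher at 250 nM in Ku, and 1 lower and 1 higher in Cov. Of all active genes that scaling called 11.7% lower and 27.0% higher in Ku, and 11.3% and 26.6% in Cov. The gene called higher was MXI1 in both lines, and that scaling put the median of all active genes at 0.30 in Ku and 0.33 in Cov. Under it MYC had a log2 fold change of -2.48 at 250 nM in Ku, still called lower, and 0.09 in Cov, where its direction thus turned. MGA was also still called lower at 250 nM in both lines under that scaling, and MYCN, counted among the 3 in Ku, was at -0.90 there. The calls of MAX were lost, with log2 fold changes of -0.25 in Ku (limma adjusted p = 0.0537) and -0.06 in Cov (limma adjusted p = 0.302). The calls of MNT, at -0.28, MXD3, at -0.62, and MXD4, at 0.18, were lost too in Ku, and in Cov those of MYC, MNT, MXD1, MXD3 and MXD4. At 50 nM in Cov, 0 members were called lower under that scaling, beside 0.154% of active genes. The lists of other genes given later were tested on the spike-in scale only.

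The balance between MYC and its partners was described by ratios of FPKM within each library. The ratio of MYC to MAX was 3.33 and 3.25 in Ku DMSO libraries, 2.74 and 3.02 at 50 nM, and 0.609 and 0.682 at 250 nM. The Cov libraries were at 5.11 and 5.19 in DMSO, 6.85 and 6.39 at 50 nM, and 5.72 and 5.76 at 250 nM. The Ku ratio at 250 nM was 5.10-fold below DMSO, with MYC mRNA below MAX mRNA, whereas every Cov THZ1 library lay above both DMSO libraries. An exact two-sided permutation test gave p = 0.3333 for each step, the smallest that 2 libraries against 2 can give.

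MYC was also set against the summed FPKM of MNT, MGA, MXI1, MXD1, MXD3 and MXD4. That sum was 64.1 and 54.8 FPKM in Ku DMSO libraries and 13.3 and 15.6 FPKM at 250 nM. Values in Cov were 100.6 and 106.1 FPKM in DMSO and 32.7 and 38.1 FPKM at 250 nM. The repressor mRNAs as a group thus kept 24.3% of their DMSO level in Ku and 34.3% in Cov, where MYC kept 4.10% and 25.2%.

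The ratio of MYC to this sum was 1.29 and 1.35 in Ku DMSO libraries, 1.29 and 1.32 at 50 nM, and 0.235 and 0.211 at 250 nM. In Cov it was 1.64 and 1.70 in DMSO, 1.94 and 2.08 at 50 nM, and 1.33 and 1.14 at 250 nM. In Ku the ratio overlapped DMSO at 50 nM and was 5.91-fold lower at 250 nM. In Cov it was above DMSO at 50 nM and below it at 250 nM. MXD4 and MXD3 carried most of the sum, and MXD4 alone moved the Cov DMSO ratio to 2.78 when it was left out. A ratio of mRNA levels is not a ratio of proteins.

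A scale that multiplies all genes of a library alike cancels in these ratios. Whether the deposited normalization was such a scale was not tested. From DMSO to 250 nM the shared low value moved by -0.56 in Ku and -0.09 in Cov on the log2 scale, while the median of active genes moved by -1.98 and -2.08. The median also holds the fall of the genes themselves, so the gap does not settle the point.

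**Figure D4:**
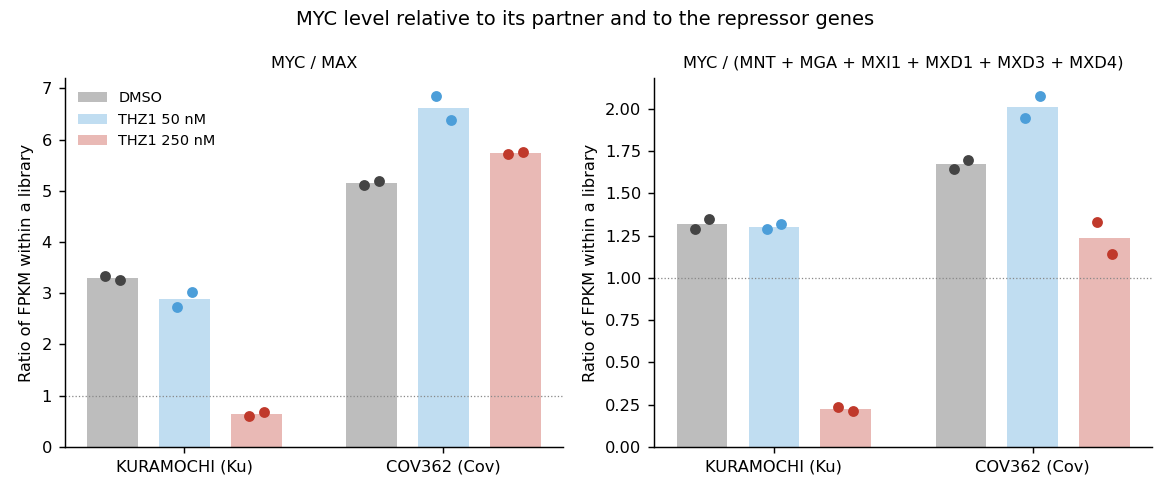
Ratio of FPKM within each library (points) and the mean of each pair (bars, from 0) for MYC to MAX and for MYC to the summed repressor genes; dotted lines mark a ratio of 1. In Ku at 250 nM MYC to MAX is 0.609 and 0.682 and MYC to the repressors 0.235 and 0.211, while in Cov all ratios stay above 1.

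MYC and MAX had different neighbours among 6921 genes with a mean DMSO level of at least 10 FPKM in both lines, when genes were ranked by the Euclidean distance over the 4 log2 fold changes against DMSO. The nearest to MYC were ZNF503, NFKBIA, RHOB, SPRY2 and ZFP36L2, at distances of 0.25 to 0.64. NFKBIA encodes the inhibitor of NF-kB, RHOB a small GTPase, SPRY2 a feedback inhibitor of growth factor signalling, and ZFP36L2 a protein that promotes mRNA decay. At 250 nM, ZNF503 had log2 fold changes of -4.19 in Ku and -1.88 in Cov. The nearest to MAX were TXNL4B, KCMF1, XPO6, NFATC3 and ICT1, at distances of 0.10 to 0.15. The closest of these, TXNL4B, was at -2.14 and -2.001 at 250 nM. The neighbours of MYC were thus farther from it than those of MAX, and the distance is a description over 4 values that share their DMSO libraries.

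Promoters were read from RefSeq (GRCh38.p14) to see which members carry the E-box that the network itself binds. The motif CACGTG, which reads the same on both strands, was searched in the 250 bases before each start. It occurred in 2228 of 35116 such windows, or 6.34%. For the 9 members other than MYC, 14 windows were found and 2 held it. The windows of MXD4 and MNT are printed because they are these 2, with the motif in capitals. The MXD4 window is chr4:2262110-2262359 on the minus strand with the motif starting 238 bases before the gene start, and the MNT window is chr17:2401061-2401310 on the minus strand with the motif 193 bases before it.
MXD4: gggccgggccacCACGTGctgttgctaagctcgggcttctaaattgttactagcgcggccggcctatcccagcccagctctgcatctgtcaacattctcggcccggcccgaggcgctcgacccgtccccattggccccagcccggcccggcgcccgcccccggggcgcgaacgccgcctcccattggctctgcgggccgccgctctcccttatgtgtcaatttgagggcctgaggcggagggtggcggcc
MNT: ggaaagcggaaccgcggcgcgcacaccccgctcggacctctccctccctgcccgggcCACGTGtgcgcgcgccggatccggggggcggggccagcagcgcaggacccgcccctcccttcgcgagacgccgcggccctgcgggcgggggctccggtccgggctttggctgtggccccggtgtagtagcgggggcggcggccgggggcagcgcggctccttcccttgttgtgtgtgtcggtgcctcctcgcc
At 250 nM the log2 fold changes of MXD4 and MNT were -1.59 and -1.61 in Ku and -1.17 and -0.92 in Cov. A match is a run of letters and shows no binding.

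In the GRCh37 annotation, MYC lies at chr8:128747680-128755197 on the plus strand, MYCN at chr2:16080672-16087129 on the plus strand and MYCL at chr1:40361100-40367928 on the minus strand. MAX lies at chr14:65472892-65569413 on the minus strand, where FNTB and the readthrough row CHURC1-FNTB overlap it on the other strand, with at most 4.49 and 9.09 FPKM. MNT lies at chr17:2287367-2304398 (minus), MGA at chr15:41913332-42065279 (plus) and MXI1 at chr10:111967363-112047123 (plus). MXD1 lies at chr2:70124820-70170077 (plus), MXD3 at chr5:176728462-176739758 (minus) and MXD4 at chr4:2249159-2263836 (minus). The 10 genes lie on 9 chromosomes, only MYCN and MXD1 sharing one.

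Genes that work with the network were then followed in 7 lists. The MLX branch is a parallel dimer system whose MLX protein also binds MXD1, MXD4 and MNT. Of its 3 genes, 2 were active, and both fell at 250 nM in both lines. The log2 fold changes of MLX itself were -2.88 in Ku and -2.59 in Cov, below those of MAX in each line. MLXIP, a glucose-responsive partner of MLX, was at -1.56 and -1.65.

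Co-repressors that MXD proteins and MNT recruit were called lower for 10 of 11 genes in Ku and 11 of 11 in Cov at 250 nM, with medians of -0.82 and -1.39. Beside these and the list counts that follow stand 68.6% of all active genes called lower in Ku and 84% in Cov, with medians of -1.11 and -1.31, so high counts are no result about the lists. SIN3A, the scaffold that MXD proteins bind directly, was called lower at -2.61 in Ku and -3.17 in Cov. HDAC1, a histone deacetylase, had a log2 fold change of -0.19 in Ku, not called, and was called lower at -0.73 in Cov. MYC co-activators were called lower for 9 of 10 genes in Ku and 10 of 10 in Cov, with medians of -1.40 in both. KAT5, a histone acetyltransferase, was called lower at -3.31 and -3.36. KAT2A, another acetyltransferase, was at -0.46 in Ku, not called, and at -0.56 in Cov, called lower.

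The partners of MGA in PRC1.6 were called lower for 10 of 10 genes in both lines, with medians of -1.68 and -1.87. E2F6, a repressive E2F, was at -2.60 in Ku and -2.69 in Cov, and TFDP1, the partner of E2F factors, was at -0.94 and -0.96. Genes of MYC protein turnover were also called lower for 10 of 10 in both lines, with medians of -1.54 and -1.84. AURKA, a mitotic kinase that protects MYC family proteins from degradation, was at -4.37 in Ku and -4.29 in Cov.

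Of 5 binding or modifying partners of MYC, 4 were called lower in Ku and 5 in Cov. HCFC1, a chromatin cofactor that binds MYC, was at -1.67 and -1.88. MYCBP was at -0.63 in Ku, not called, and BIN1, whose protein interacts with MYC, was called lower at -1.15 in Cov. Of 14 active classical MYC target genes, 11 were called lower in Ku and 14 in Cov, with medians of -0.89 and -1.26 beside -1.11 and -1.31 over all active genes. CDC25A, a phosphatase that drives the cell cycle, was at -2.71 and -3.87. TFRC, the transferrin receptor, was at -0.41 in Ku, not called, and NME1, a nucleoside diphosphate kinase, was called lower at -0.90 in Cov.

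**Figure D5:**
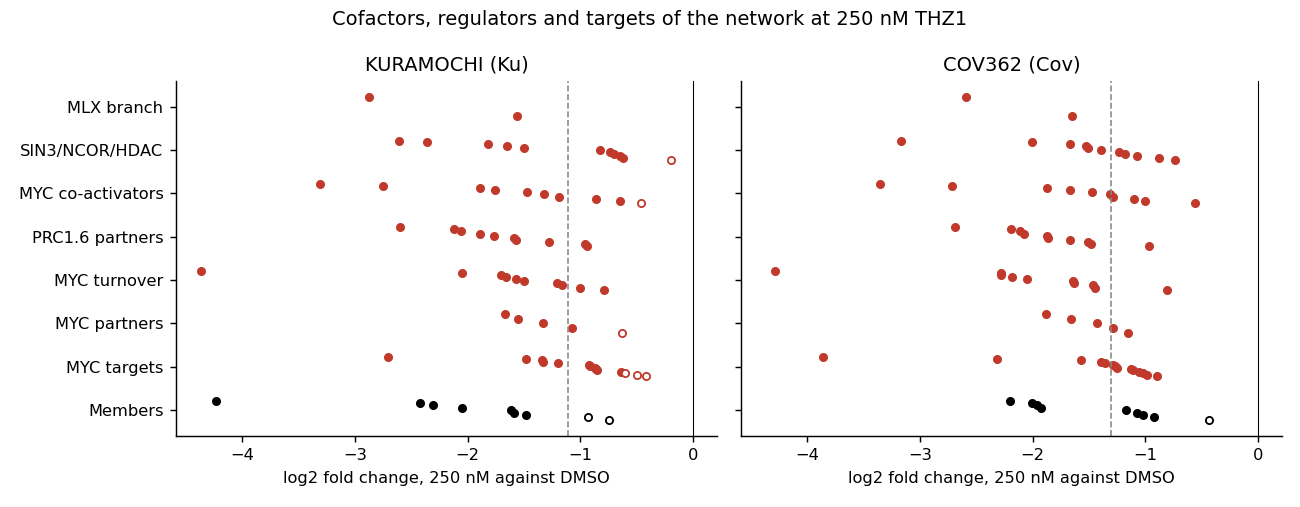
log2 fold change at 250 nM THZ1 against DMSO for the active genes of 7 lists and for the members (points; filled, called lower; open, not called) in Ku and Cov; dashed lines are the medians of all active genes, -1.11 and -1.31. All points lie below 0, and the classical targets centre at -0.89 in Ku and -1.26 in Cov. The MYCN point among the members is filled in Ku, but its call is not read as a test.

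At 50 nM, 11.3% of active genes were called lower in Ku, a share that fell below 1% with any library left out, and 70.5% in Cov. In Ku, called lower were 1 of 2 MLX branch genes, 0 of 11 co-repressors, 0 of 10 co-activators, 2 of 10 PRC1.6 partners, 1 of 10 turnover genes, 0 of 5 partners and 1 of 14 targets. In Cov they were 2 of 2, 9 of 11, 10 of 10, 8 of 10, 7 of 10, 4 of 5 and 11 of 14 in the same order. At an unadjusted p under 0.05 in limma, 5 co-repressors, 8 co-activators and 3 partners were lower in Ku at 50 nM, as were 61% of active genes, and 1 partner, ZBTB17, was higher (log2 fold change 0.24, limma adjusted p = 0.0578), beside 1.46% of active genes. ZBTB17 is named for this count, after its values were seen. Over the lists, 0 of 61 active genes were called in the line difference at 250 nM by limma, beside 2.52% of all active genes called lower and 3.85% higher. At an unadjusted p under 0.05 the difference was above 0, a smaller fall in Ku, for 24 of the 61 genes and below 0 for 1, beside 33.1% and 14.1% of all active genes. In the line difference at 50 nM these counts were 52 and 0, beside 57% and 4.02%.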

How the data were processed

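The authors made 12 polyA RNA libraries, mapped the reads with HiSat (hg19), obtained FPKM from cuffquant and cuffnorm, normalized them to ERCC spike-ins, and deposited 1 table of FPKM per cell line. These are not counts, so depth is unknown, edgeR, which the study names, was not used, and intervals that need counts are left out. The library kit was stranded, and whether counting used strand is not given in the sources used here. Groups follow the line and dose in the labels, and all value columns were used.

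Values were taken as log2(FPKM + 1), a scale that understates changes of low genes. limma 3.58.1 under R 4.3.3 was run per line (lmFit, eBayes with trend; two-sided), with 3 groups of 2 libraries, over 14251 active genes (FPKM above 1 in at least 1 of 12 libraries), with Benjamini-Hochberg adjustment and the study's thresholds of 0.001 for the adjusted p and 0.5 for the log2 fold change. The difference between lines was a contrast of fold changes taken within each table, in 1 fit of 12 libraries. P-values measure the spread between these libraries. The fit was tested on simulated data. Ratios, figures and sequences were handled in Python 3.11.15 with pandas 2.3.3 and matplotlib 3.10.9. The members, the lists and the tests were chosen with earlier results of these data known. Named genes are all members, for each list the active gene with the largest and that with the smallest fall at 250 nM in each line and any called higher, and the 5 genes nearest to MYC and to MAX. One gene that this rule names is not reported here. Alternatives tried were the pseudocount 0.1, no minimum or one of 10 FPKM, equal-median and median-of-ratios scaling, re-centring on the ERCC rows, fits restricted to the 2 groups of a comparison, a replicate block, eBayes with no trend, thresholds of 0.05 for the adjusted p or 1 for the log2 fold change, and each library left out.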

Additional observations from a re-analysis of the deposited data

Results flagged for a closer look

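MYC responded differently in the lines at 250 nM, by limma's test of the difference itself. The log2 fold change in Ku minus that in Cov was -2.27 (SE 0.108, adjusted p = 1.41e-06), and the 250 nM libraries held 3.11 and 3.30 FPKM in Ku and 43.6 and 43.5 FPKM in Cov. MYCN differed by -1.05, a value given with no test, from DMSO levels of 1.98 and 2.06 FPKM in Ku and 0.521 and 0.519 FPKM in Cov. Its 250 nM values lay close to the low value that many rows of a library share, with 1 Ku library below it, and it was active only through Ku DMSO and 50 nM libraries, which enter this difference. No group has 4 or more libraries, so no library could be tested as an outlier.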

How the results depend on the processing

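The main limit is the scaling. With libraries scaled to equal medians over the active genes, the median log2 fold change of all active genes was at 0.11, 0.30, 0.13 and 0.33 at 50 and 250 nM in Ku and at 50 and 250 nM in Cov, and these log2 values turned their direction: MYC 0.0696, MYCN 0.26, MAX 0.25, MXI1 0.43, MXD4 0.33 (Ku 50 nM against DMSO), MXI1 0.95, MXD1 0.32, MXD4 0.18 (Ku 250 nM against DMSO), MNT 0.0571, MXI1 0.52 (Ku 250 nM against 50 nM), MYC 0.52, MYCN 0.34, MAX 0.15, MNT 0.11, MXI1 0.47, MXD1 0.62, MXD3 0.12, MXD4 0.31 (Cov 50 nM against DMSO), MYC 0.0878, MYCN 0.0131, MNT 0.59, MXI1 0.78, MXD1 0.37, MXD3 0.0265, MXD4 0.84 (Cov 250 nM against DMSO), MNT 0.48, MXI1 0.31, MXD4 0.52 (Cov 250 nM against 50 nM), MYC -0.45, MXI1 -0.0406, MXD1 -0.0102, MXD3 -0.45 (line difference at 50 nM) and MXD1 -0.0488 (line difference at 250 nM). Under median-of-ratios scaling these turned: MYCN 0.16, MAX 0.11, MXI1 0.30, MXD4 0.19 (Ku 50 nM against DMSO), MXI1 0.49 (Ku 250 nM against DMSO), MXI1 0.18 (Ku 250 nM against 50 nM), MYC 0.32, MYCN 0.26, MXI1 0.29, MXD1 0.47, MXD4 0.13 (Cov 50 nM against DMSO), MNT 0.24, MXI1 0.36, MXD1 0.0457, MXD4 0.39 (Cov 250 nM against DMSO), MNT 0.26, MXI1 0.0674, MXD4 0.26 (Cov 250 nM against 50 nM), MYC -0.40, MXD3 -0.40 (line difference at 50 nM) and MXD1 -0.0744 (line difference at 250 nM). With equal-median scaling the members called lower were 3 at 250 nM in Ku, 2 from 50 to 250 nM in Ku, 0 at 50 nM, 1 at 250 nM and 0 from 50 to 250 nM in Cov, and 1 in the line difference at 250 nM, with 1 called higher at 250 nM in each line. In the same order, 11.7%, 6.59%, 0.154%, 11.3%, 5.05% and 2.24% of active genes were called lower. With median-of-ratios scaling they were 3 from 50 to 250 nM in Ku, 0, 1 and 1 in the Cov comparisons in the same order, and 1 in the line difference at 250 nM, beside 11.1%, 0.772%, 18.9%, 7.92% and 2.99% of active genes. Over all active genes at 250 nM, equal-median scaling called 1664 lower and 3853 higher in Ku and 1613 and 3789 in Cov, where the spike-in scale called 9774 and 7, and 11971 and 15. The cause of these turns was not tested.

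A minimum FPKM of 10, under which MYCN, MNT and MXD1 gave no value, gained 1 call in Ku at 50 nM, that of MXD3 (0 as reported), and left 1 member called lower in the line difference at 250 nM, beside 15.5% and 1.68% of the genes tested. No minimum left 3 from 50 to 250 nM in Ku, beside 8.05% of rows. An adjusted p under 0.05 called 4 lower in Ku at 50 nM, 5 from 50 to 250 nM in Cov, and 3 higher in the line difference at 50 nM, beside 40.2%, 41.5% and 38.8% of active genes. A log2 fold change beyond 1 left 3 at 50 nM and 1 from 50 to 250 nM in Cov, beside 35.5% and 14.3%. A pseudocount of 0.1 gave 5 from 50 to 250 nM in Cov and 1 in the line difference at 250 nM, beside 29.6% and 1.39%. With the replicate number as a block, 3 were called at 50 nM and 1 from 50 to 250 nM in Cov, and 1 in the line difference at 250 nM, beside 51.0%, 7.93% and 1.5%. The correlation of deviations of same-numbered libraries ran from -0.0703 to 0.0282, so the numbers were not taken to pair the libraries. No count of members moved by more than 1.5 times with re-centring on the ERCC rows, without the trend, or with only the 2 groups compared, but the latter reduced the 1607 active genes called lower in Ku at 50 nM to 9.

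With 1 library left out, the members called lower ranged from 0 to 0 at 50 nM and 6 to 7 at 250 nM in Ku, 1 to 6 from 50 to 250 nM in Ku, 2 to 6 at 50 nM, 7 to 8 at 250 nM and 1 to 4 from 50 to 250 nM in Cov, and 1 to 2 in the line difference at 250 nM. In the same order, the shares of active genes called lower ranged from 0.0421% to 0.919%, 42.7% to 63.5%, 5.55% to 32.3%, 30.3% to 69.7%, 73.3% to 86.6%, 10.7% to 27.9% and 1.28% to 2.2%. At 50 nM in Cov 3 were called without the first DMSO library and 2 without the second, and from 50 to 250 nM 1 without the second 250 nM library. These ranges include MYCN where it was counted. Without MYCN, the counts over all libraries were 6 of 8 at 250 nM and 5 of 8 from 50 to 250 nM in Ku. In the line difference at 250 nM the count was then 1 of 8, which was MYC. Small log2 values that changed sign with a library left out ranged from -0.11 to 0.35 for MXD1 (Ku 50 nM against DMSO), -0.36 to 0.0254 for MXI1 (Ku 50 nM against DMSO), -0.14 to 0.0666 for MYCN (Cov 50 nM against DMSO), -0.00502 to 0.15 for MYC (line difference at 50 nM), -0.0407 to 0.17 for MXD3 (line difference at 50 nM), -0.10 to 0.0176 for MAX (line difference at 250 nM), -0.14 to 0.32 for MXD1 (line difference at 250 nM), through the first DMSO library of either line (MAX, lines at 250 nM), the second 50 nM library (MXI1 in Ku, MYCN in Cov, MXD3 between lines at 50 nM) or the second Ku DMSO library (MXD1 in both comparisons, MYC). The value of MAX was 0.00828 without the first Cov DMSO library.

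The ratio of MYC to the repressor sum without MNT and MGA was 1.81, 1.67 and 0.264 in Ku DMSO, 50 nM and 250 nM libraries, and 1.90 and 2.19 in Cov DMSO and 50 nM libraries. Without MXD4 it was 1.80, 1.94 and 0.328 in Ku and 2.78, 3.47 and 2.49 in Cov. Over the libraries left out, the Ku ratio of MYC to MAX ranged from 3.25 to 3.33, 2.74 to 3.02 and 0.609 to 0.682, and that to the sum from 1.29 to 1.35, 1.29 to 1.32 and 0.211 to 0.235. With 2 libraries a group and no counts, neither the depth behind a value nor an error on a single library can be given.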
